A study of Mus musculus with 6 samples.

Results

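Transcripts of 10 genes that report and restrain signalling through the ERK kinases were followed in Min6 cells, a mouse insulinoma line that makes insulin. The genes were taken by name and not by their values, although earlier results of these data were known. They were the dual-specificity phosphatases Dusp1, Dusp4, Dusp5 and Dusp6 and the Sprouty genes Spry2 and Spry4. The others were the Spred genes Spred1 and Spred2 and the ETS transcription factor genes Etv4 and Etv5. All 10 were found among the 53379 gene identifiers of the count tables, and all 10 passed the filter on low counts. Every library came from total RNA of Min6 cells at passage 28 that carried the lentiCRISPR v2 vector, which delivers Cas9 and a guide RNA (gRNA), and that were collected on day 8 after transduction, at the end of 30 hours of glucolipotoxic treatment. The guide was directed at the Rosa26 locus, the negative control, in 3 libraries and at JunD in the other 3. Since the stress and the vector were common to both groups, the comparison addresses what a JunD guide changed in stressed cells, and no unstressed or untransduced cells were analysed here. The labels do not tell whether a group's replicates were separate transductions, so the p-values reflect the spread between these libraries, which may be technical.

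Growth factor receptors pass their signal through Ras, RAF and MEK to the kinases ERK1 and ERK2. Active ERK induces the transcription of its own inhibitors: dual-specificity phosphatases that remove the activating phosphates from ERK and its relatives, and Sprouty and Spred proteins that act further up, around Ras and RAF. It also induces Etv4 and Etv5, whose products are activators of the PEA3 group of ETS factors, and the levels of these transcripts are widely used as a readout of ERK output. In beta cells ERK is activated by glucose and by incretin hormones. JunD belongs to the AP-1 transcription factors, which as dimers bind the AP-1 site and, with ATF partners, the related cAMP response element (CRE). Phosphorylation of ERK itself was not analysed here.

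Upstream sequences are shown for 3 phosphatase genes, because sites of the kind that JunD dimers bind and sites of serum response factor, a relay of ERK signals, lie close to the start of 2 of them and the third, Dusp6, is a widely used ERK target gene. A RefSeq promoter entry (GRCm38.p6) was matched for 7 of the 10 genes, with 8 windows in all, and Dusp4, Spry4 and Etv4 are named only. Each line gives, 5′ to 3′ on the gene's strand, the bases from -250 to -51 relative to the annotated start, which are chr17:26508523-26508722 on the minus strand for Dusp1, chr19:53528895-53529094 on the plus strand for Dusp5 and chr10:99262981-99263180 on the plus strand for Dusp6. Capitals mark the CRE and its half-site in Dusp1, and 2 adjoining CArG boxes (the binding element of serum response factor) and a CRE half-site in Dusp5.
Dusp1: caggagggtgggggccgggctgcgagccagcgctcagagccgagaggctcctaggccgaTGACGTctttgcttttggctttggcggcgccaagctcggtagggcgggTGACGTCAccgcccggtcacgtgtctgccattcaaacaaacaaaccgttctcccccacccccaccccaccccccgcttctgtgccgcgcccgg
Dusp5: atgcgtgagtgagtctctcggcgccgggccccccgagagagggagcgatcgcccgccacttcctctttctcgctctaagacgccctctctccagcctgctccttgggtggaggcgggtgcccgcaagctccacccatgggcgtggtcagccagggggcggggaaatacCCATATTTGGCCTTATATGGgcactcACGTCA
Dusp6: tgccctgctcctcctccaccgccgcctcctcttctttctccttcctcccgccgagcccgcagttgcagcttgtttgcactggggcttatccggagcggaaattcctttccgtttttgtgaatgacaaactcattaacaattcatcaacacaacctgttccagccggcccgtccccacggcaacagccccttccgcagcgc
The 250 bases before the start were searched on both strands. The full CRE (TGACGTCA) was found in 1 of the 8 windows, that of Dusp1 at -143, and in 1.55% of all 32851 windows of that length. Its half-site (TGACGT), which the full element also contains, was found in 3 windows, and in 6.47% of all windows. Matches outside the full element lay in Dusp1 at -191, in Dusp5 at -56 and in Spred2 at -52. The Spred2 window was placed by the RefSeq start, and this match lies inside the gene's span in GENCODE M21 (from 19924375). The CArG box was found in 1 window, at -82 and -72 in Dusp5, and in 1.47% of all windows. The letters of the AP-1 site (TGANTCA) were in 0 of the 8, and in 6.75% of all windows. The ETS form CCGGAAG was also in 0 of the 8, and in 6.91% of all windows. Other forms of the ETS site were not searched, so their absence is not shown. For Capicua, the ERK-sensitive repressor of Etv genes, only TGAATGAA (in 1.08% of all windows) and TGAATGGA (in 1.01%) were searched. Both were in 0 of the 8, which does not show that other forms of its site are absent. A match is a string of letters and no evidence of binding.

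The libraries held between 41071566 and 50024931 counts. Rosa26 gRNA replicate 1 stood apart: it lay at -62.1 on a first principal component with 45.8% of the variance, where the other 5 libraries lay between 6.09 and 22.5. The summed level of 4 structural RNA genes, a sign of library composition, was 4460 CPM (counts per 1000000 of the library total) in this library, 1180 and 1300 CPM in the other Rosa26 gRNA libraries and 1020 to 1150 CPM with the JunD gRNA. Without replicate 1, mt-Rnr1 (-0.20, adjusted p = 0.0253) and mt-Rnr2 (-0.19, adjusted p = 0.0242), the mitochondrial ribosomal RNA genes, were still called lower, so this level moved with the groups, and its part in the results was not tested. This library was the lowest or highest of the 6 for 71.1% of all tested genes and for 6 of the 10 ERK feedback genes. The results on the 10 genes are therefore also given without it. Beta-cell markers summed to 42100 CPM in Rosa26 gRNA replicate 1, to 72800 and 77000 CPM in the other Rosa26 gRNA libraries and to 75500 to 81300 CPM with the JunD gRNA. Of these 9 markers, 0 passed with 6 libraries. Without replicate 1, 5 rose (Ins2, Pdx1, Mafa, Nkx6-1 and Slc2a2), against 1.45% of all genes, and 1 fell, against 1.40%. The 1 that fell was Iapp (-0.11, edgeR adjusted p = 0.0382), and Ins1, G6pc2 and Ucn3 did not pass. Of 5 markers of other islet cells 4 were tested, and 0 passed with 6 libraries. The glucagon gene Gcg stood at 523 to 686 CPM. Without replicate 1, 0 rose and 1 fell, Ppy (-0.70, edgeR adjusted p = 1.45e-05). Rosa26 gRNA replicate 1 (10.1 CPM) lay below the JunD gRNA libraries (15.5 to 18.7 CPM) for Ppy. The part of these genes in the differences between groups was not tested. The leukocyte gene Ptprc was at or below 0.0403 CPM, the acinar gene Cpa1 was at or below 0.0243 CPM and Amy2a2 was at 0 in all libraries. Of 8 markers of non-endocrine cells 4 were tested, and the list summed to 52.9 to 63.6 CPM with the Rosa26 gRNA and 64.3 to 66.7 CPM with the JunD gRNA, most of it the duct gene Krt19, and its part in the differences between groups was not tested. Jund was lower in all 3 JunD gRNA libraries (22.6, 25.1 and 26.9 CPM) than in any Rosa26 gRNA library (39.3, 34.5 and 30.4 CPM). Its log2 fold change was -0.47 ± 0.11 (SE, edgeR adjusted p = 0.417), and -0.38 ± 0.08 (adjusted p = 0.00773) without Rosa26 gRNA replicate 1. In GENCODE M21 the antisense gene Gm11175 shares 877 exonic bases with Jund. It had 0 counts in all libraries, and without a stated strand setting it is not known how reads there were counted. JunD protein was not analysed here, and the transcript level does not measure its loss.

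None of the 10 ERK feedback genes changed past the threshold of the test. In edgeR's quasi-likelihood fit across 17767 genes, 0 of the 10 passed an adjusted p of 0.05 in either direction, as did 0% of all genes. DESeq2 on the same 6 libraries also called 0 of the 10, with 0.377% of all genes called. At an unadjusted p under 0.05, 4 of the 10 were higher and 0 lower, against 5.41% and 6.51% of all tested genes. These 4 were Dusp5, Dusp6, Spry4 and Etv4, and all their JunD gRNA values lay above all their Rosa26 gRNA values. Spred1 was the 1 gene whose JunD gRNA values all lay below. Groups that do not overlap were thus seen in 4 genes upwards, with 11.6% of all tested genes, and in 1 downwards, with 12.8%. In either direction these are 5 of the 10, against 24.4% of all tested genes. The differences were small: the 10 log2 fold changes ran from -0.44 to 0.29, with a median of 0.06, while the median of all tested genes was -0.006. Summed over the 10 genes, the level was 1070 to 1110 CPM with the Rosa26 gRNA and 1160 to 1200 CPM with the JunD gRNA, a sum made up mostly of Dusp4 and Dusp5.

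**Figure D1:**
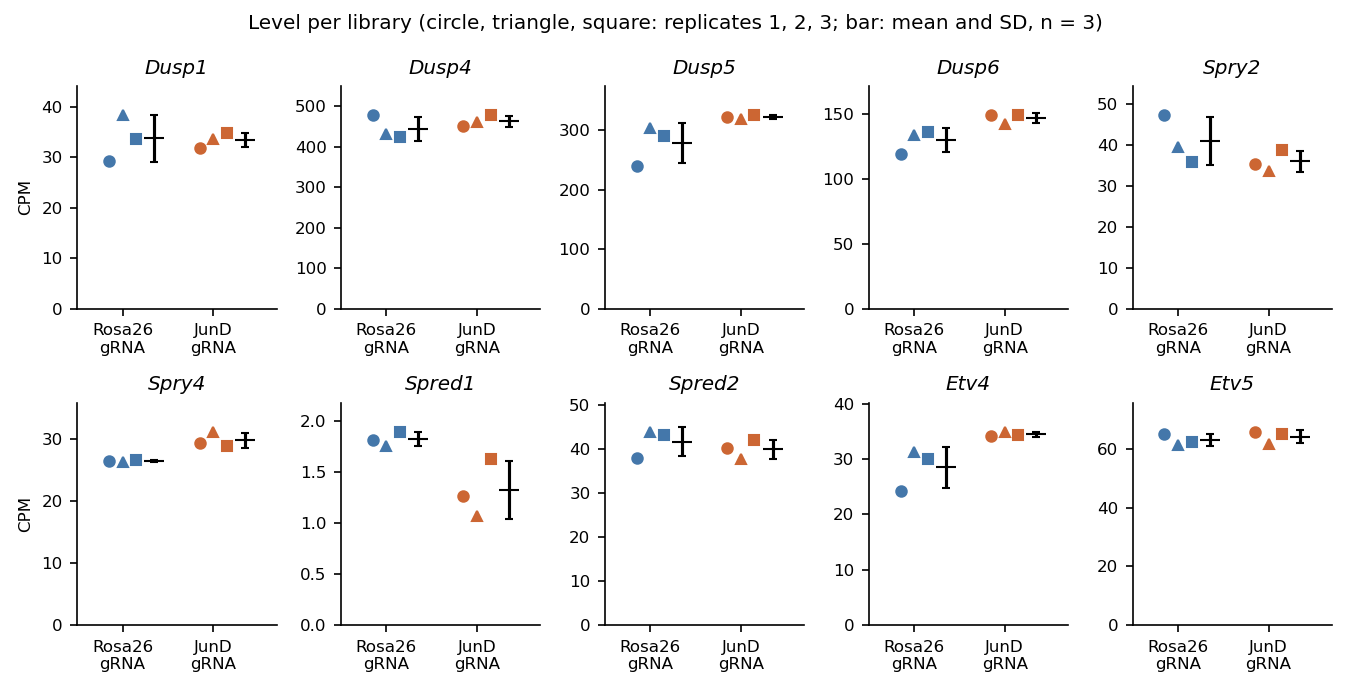
Level of each ERK feedback gene in CPM (y axes from 0, each with its own scale) in the 3 Rosa26 gRNA libraries (blue) and the 3 JunD gRNA libraries (orange), with the mean and SD of each group beside the points. The groups lie apart for Dusp5, Dusp6, Spry4, Etv4 (JunD gRNA above) and Spred1 (JunD gRNA below), and Rosa26 gRNA replicate 1 (blue circle) is the lowest library for Dusp1, Dusp5, Dusp6 and Etv4 and the highest for Dusp4 and Spry2.

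Per kilobase of annotated exon, 3 of the phosphatase genes were the most abundant of the 10. Averaged over the 6 libraries, Dusp4 stood at 165 CPM per kb, above 98.6% of tested genes, Dusp5 at 121 and Dusp6 at 44.1. They were followed by Spry2 (18.4 CPM per kb), Etv5 (15.5), Etv4 and Dusp1 (10.2 each), Spred2 (8.84) and Spry4 (5.91). Spred1 was the lowest, at 0.232 CPM per kb, above 10.2% of tested genes. The ranges over libraries overlapped between neighbours for Etv4 and Dusp1 and for Dusp1 and Spred2, so the order within these pairs is not resolved. The other neighbours did not overlap, although the lowest Spry2 and the highest Etv5 library were both at 16.1 CPM per kb after rounding. For Dusp1 the exons of the GENCODE M21 model (3311 bases) were used, and its longest transcript has 2313 bases. Its level per kb and its place in the order thus depend on the gene model.

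**Figure D2:**
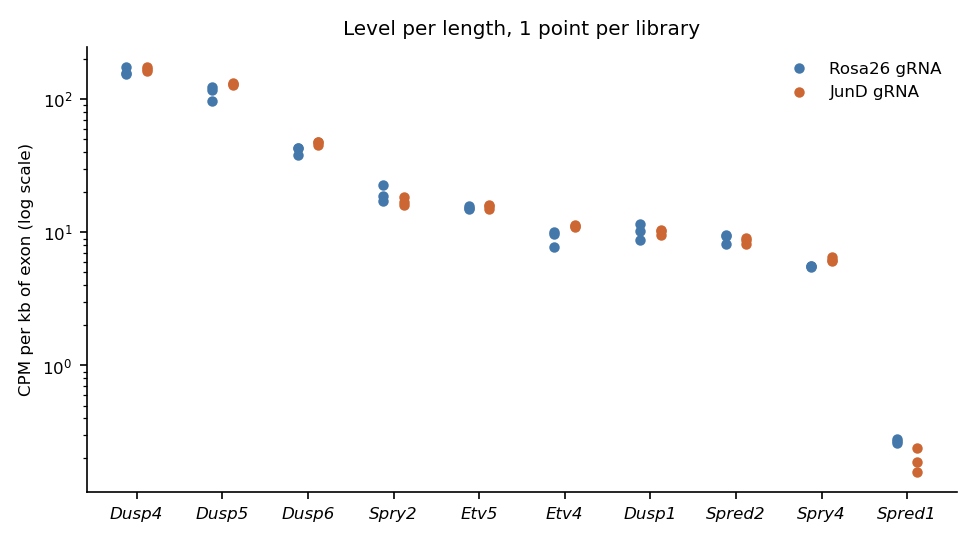
Level of each ERK feedback gene per kilobase of annotated exon (CPM per kb, log scale), 1 point per library, genes ordered by their mean over the 6 libraries. The genes span from 0.232 (Spred1) to 165 CPM per kb (Dusp4), far more than the distance between the groups of any one gene.

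Among the nuclear phosphatase genes, Dusp4 and Dusp5 stood above 98.6% and 98.2% of tested genes per kilobase and Dusp1 above 71.3%. Dusp5 encodes an inducible nuclear phosphatase that acts on ERK and not on the other MAP kinases. Its level was 240, 304 and 291 CPM in Rosa26 gRNA replicates 1, 2 and 3 and 322, 320 and 326 CPM in the JunD gRNA libraries. The JunD gRNA libraries were nearly equal and all higher, and Rosa26 gRNA replicate 1 was the lowest of the 6. The log2 fold change was 0.23 ± 0.10 (SE, 95% interval 0.01 to 0.44, adjusted p = 0.417). Without that library it was 0.12 ± 0.04 (0.04 to 0.20, adjusted p = 0.0941). DESeq2 called Dusp5 higher on those 5 libraries (adjusted p = 0.0364). There DESeq2 called 2 of the 10 genes, both higher, and 3.42% of all genes, 1.86% higher and 1.56% lower. With GC content and length corrected, Dusp5 was 0.10 (adjusted p = 0.443) on 6 libraries and 0.079 (adjusted p = 0.23) on 5, and was not called. The gene (ENSMUSG00000034765.6) spans 53529109 to 53542431 on chromosome 19, on the plus strand of GRCm38 (mm10), in 4 exons. An antisense gene in GENCODE M21 shares 547 exonic bases with it, and without a stated strand setting its reads cannot be told apart from those of Dusp5.

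Dusp4 encodes a nuclear phosphatase of ERK and other MAP kinases. It stood at 478, 431 and 423 CPM with the Rosa26 gRNA and at 451, 460 and 478 CPM with the JunD gRNA. The groups overlapped because Rosa26 gRNA replicate 1 was about as high as the highest JunD gRNA library, while the other 2 Rosa26 gRNA libraries lay below all JunD gRNA libraries. On the log2 scale the difference was 0.08 ± 0.07 (-0.08 to 0.23, adjusted p = 0.587), and 0.12 ± 0.04 (0.05 to 0.20, adjusted p = 0.0753) without that library. On those 5 libraries DESeq2 (adjusted p = 0.0325) and limma-voom (adjusted p = 0.0477) did call Dusp4 higher. With limma-voom it was the 1 of the 10 that was called, and 3.21% of all genes were, 1.60% higher and 1.62% lower. The sign turned when GC content and transcript length were corrected on all 6 libraries (-0.05, adjusted p = 0.872). With the same correction on the 5 libraries Dusp4 was 0.09 (adjusted p = 0.136), positive but not called. The gene (ENSMUSG00000031530.6) spans 34807297 to 34819894 on chromosome 8, plus strand, in 4 exons.

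Dusp1 encodes an immediate-early phosphatase with a preference for p38 and JNK over ERK, and carries the full CRE in its upstream sequence. It stood at 29.2, 38.4 and 33.7 CPM with the Rosa26 gRNA and 31.9, 33.7 and 34.8 CPM with the JunD gRNA. The JunD gRNA values lay inside the range of the controls. Fitted on 6 libraries, the log2 fold change was 0.0012 ± 0.11 (-0.25 to 0.25, adjusted p = 0.997), and -0.10 ± 0.07 (-0.24 to 0.04, adjusted p = 0.509) without Rosa26 gRNA replicate 1. Its sign changed with the normalization, so no direction can be given, and on all 6 libraries changes beyond 0.25 in either direction lie outside the interval. In GENCODE M21 the Dusp1 model (ENSMUSG00000024190.6 in the count tables, a later version in M21) spans 26505590 to 26562128 on the minus strand of chromosome 17 and shares 11 exonic bases with Ergic1 on the other strand. The upstream sequence shown for Dusp1 was placed by the RefSeq start and lies inside this span.

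Dusp6, the cytoplasmic ERK-specific phosphatase gene, was 119, 134 and 136 CPM with the Rosa26 gRNA and 149, 142 and 149 CPM with the JunD gRNA. All JunD gRNA libraries were higher than all controls, and Rosa26 gRNA replicate 1 was the lowest. The log2 fold change was 0.19 ± 0.08 (0.02 to 0.36, adjusted p = 0.417), a 1.14-fold higher mean. Without that library it was 0.13 ± 0.04 (0.03 to 0.22, adjusted p = 0.135). The lowest adjusted p of Dusp6 over 18 other settings was 0.0533, after correction for GC content and length on the 5 libraries, so no setting called it. The gene (ENSMUSG00000019960.8) spans 99263231 to 99267489 on chromosome 10, plus strand, in 4 exon segments.

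The Sprouty genes differed in sign. Sprouty proteins are induced by growth factors and dampen receptor signals upstream of or at RAF. Spry4 was 26.5, 26.3 and 26.6 CPM with the Rosa26 gRNA (SD 0.144) and 29.3, 31.2 and 28.9 CPM with the JunD gRNA. The groups lay apart, and Rosa26 gRNA replicate 1 sat between the other controls. Spry4 had a log2 fold change of 0.18 ± 0.08 (0.01 to 0.36, adjusted p = 0.417) with 6 libraries and 0.18 ± 0.07 (0.03 to 0.32, adjusted p = 0.183) with 5, and it lay between 0.16 and 0.21 under all 18 other settings. Among the 4 genes that were higher without overlap, Spry4 was the 1 whose value did not shrink without Rosa26 gRNA replicate 1.

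Spry2 was 47.2, 39.5 and 35.8 CPM with the Rosa26 gRNA and 35.3, 33.6 and 38.7 CPM with the JunD gRNA. The groups overlapped, and the highest value was that of Rosa26 gRNA replicate 1. On the log2 scale the difference was -0.17 ± 0.11 (-0.41 to 0.07, adjusted p = 0.48), and -0.06 ± 0.07 (-0.21 to 0.08, adjusted p = 0.73) without it. Spry2 (ENSMUSG00000022114.5) spans 105891947 to 105896819 on chromosome 14, minus strand. In GENCODE M21, Spry4 (ENSMUSG00000024427.6 in the count tables, a different version in M21) spans 38586247 to 38601415 on chromosome 18, minus strand. Each has 2 exons.

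The Spred genes encode membrane proteins that bring the Ras inactivator neurofibromin to Ras. Spred1 was low, with 79, 88 and 91 counts in the Rosa26 gRNA libraries and 53, 44 and 81 in the JunD gRNA libraries. These are levels of 1.82, 1.76 and 1.90 CPM against 1.27, 1.07 and 1.63 CPM. The groups did not overlap, with JunD gRNA replicate 3 nearest to the controls. The log2 fold change was -0.44 ± 0.23 (-0.97 to 0.08, adjusted p = 0.434), and -0.45 ± 0.27 (-1.01 to 0.10, adjusted p = 0.437) without Rosa26 gRNA replicate 1. After correction for GC content and length on all 6 libraries the groups overlapped and the value was -0.20 (adjusted p = 0.799). Its transcript has the lowest GC content of the 10 (41.2%).

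Spred2 was far above Spred1, with 37.9, 44.0 and 43.1 CPM in the Rosa26 gRNA libraries and 40.2, 37.7 and 42.0 CPM in the JunD gRNA libraries. The groups overlapped, although the JunD gRNA libraries all lay below Rosa26 gRNA replicates 2 and 3. JunD gRNA over Rosa26 gRNA, the log2 fold change was -0.05 ± 0.09 (-0.25 to 0.16, adjusted p = 0.826), and -0.12 ± 0.06 (-0.25 to 0.01, adjusted p = 0.363) without replicate 1. Spred1 (ENSMUSG00000027351.14) spans 117121374 to 117182279 on chromosome 2 and Spred2 (ENSMUSG00000045671.17) 19924375 to 20024026 on chromosome 11, both on the plus strand.

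Of the ETS factor genes, Etv4 had a larger value than Etv5, and in the uncorrected fit on 6 libraries the largest positive one of the 10. After correction for GC content and length Spry4 (0.21) and Dusp6 (0.20) lay above it, and without Rosa26 gRNA replicate 1 Spry4 equalled it (0.18). Etv4 was 24.3, 31.3 and 30.0 CPM with the Rosa26 gRNA and 34.1, 35.0 and 34.4 CPM with the JunD gRNA. The JunD gRNA libraries were tightly grouped (SD 0.421) above all controls, and Rosa26 gRNA replicate 1 was the lowest. With 6 libraries, the log2 fold change was 0.29 ± 0.11 (0.05 to 0.53, adjusted p = 0.417), a 1.22-fold higher mean, and 0.18 ± 0.06 (0.04 to 0.31, adjusted p = 0.147) without that library. After correction for GC content and length it was 0.14 (adjusted p = 0.436) on 6 libraries and 0.12 (adjusted p = 0.393) on 5, and its transcript has the highest GC content of the 10 (58.7%). Etv4 (ENSMUSG00000017724.14) spans 101769742 to 101785371 on chromosome 11, minus strand.

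Etv5 was 65.2, 61.4 and 62.5 CPM with the Rosa26 gRNA and 66.0, 61.8 and 65.0 CPM with the JunD gRNA. The groups overlapped throughout. The log2 fold change was 0.04 ± 0.07 (-0.11 to 0.20, adjusted p = 0.778), and 0.06 ± 0.05 (-0.05 to 0.17, adjusted p = 0.684) with 5 libraries. Etv5 (ENSMUSG00000013089.15) spans 22381309 to 22439719 on chromosome 16, minus strand. Whether Etv4 and Etv5 differ from each other in response was not tested.

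**Figure D3:**
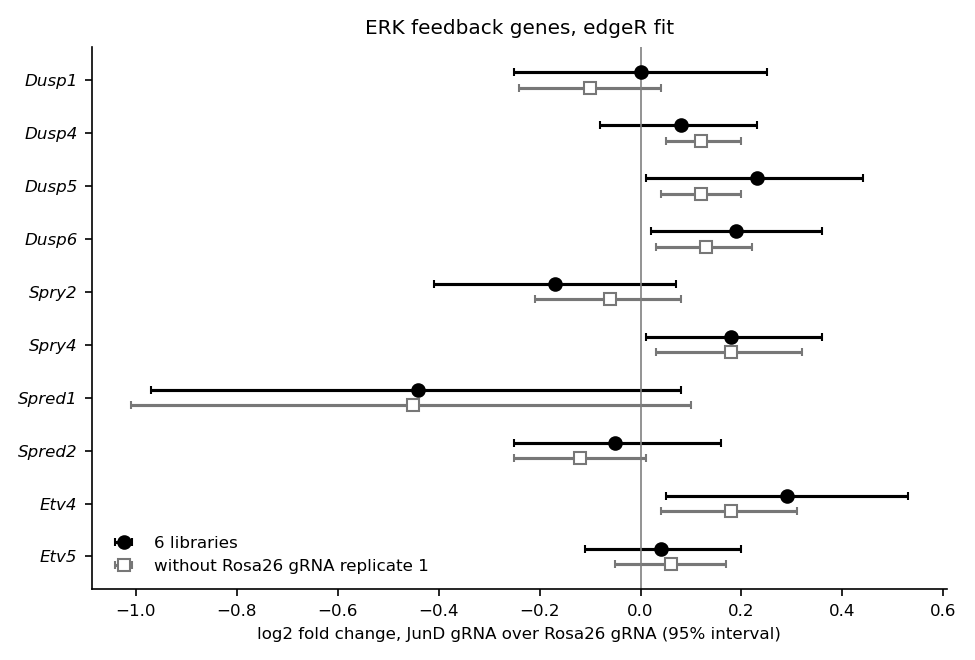
Log2 fold change of each ERK feedback gene, JunD gRNA over Rosa26 gRNA, with its 95% interval from the edgeR fit, on all 6 libraries (filled) and without Rosa26 gRNA replicate 1 (open). On 6 libraries the unadjusted intervals of Dusp5, Dusp6, Spry4 and Etv4 lie above 0; on 5 libraries that of Dusp4 does too, and the values of Dusp5, Dusp6 and Etv4 are smaller.

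Leaving out Rosa26 gRNA replicate 1 narrowed the intervals of 9 of the 10 genes without bringing any past the threshold in edgeR. On those 5 libraries 0 of the 10 genes passed, while 2.86% of 18296 genes did (1.45% higher and 1.40% lower). At an unadjusted p under 0.05, 5 of the 10 were higher and 0 lower, against 8.31% and 7.59% of all genes. Groups did not overlap upwards in 5 genes, Dusp4 being the addition (15.9% of all genes), and downwards in 2, Spred1 and Spred2 (17.4%). The median of the 10 was 0.088, against -0.003 for all genes tested. The part of the high structural RNA level of this library in the differences between both fits was not tested.

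**Figure D4:**
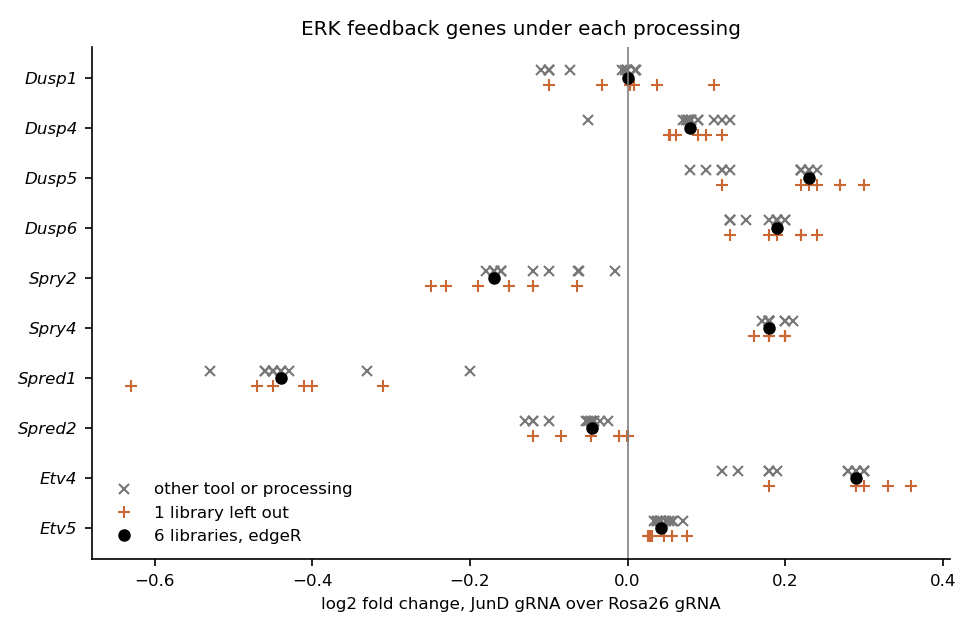
Log2 fold change of each ERK feedback gene under every processing: edgeR on 6 libraries (black), other tools, filters, normalizations and corrections (grey crosses), and 1 library left out at a time (orange plus signs). Dusp5, Dusp6, Spry4, Etv4 and Etv5 are positive and Spry2 and Spred1 negative in all 18 other settings, whereas Dusp1 is positive in 7 of 18, Dusp4 in 17 and Spred2 in 1.

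The rest of the pathway was read from lists of genes chosen by their known roles. Of 7 tested relatives among the MAP kinase phosphatases, 0 passed with 6 libraries, 2 had a positive and 5 a negative log2 fold change, and the median was -0.19. With 5 libraries 8 were tested, Dusp2 being the addition, and the median was -0.13. Dusp8, a phosphatase of JNK and p38, fell when Rosa26 gRNA replicate 1 was left out (-0.21 ± 0.06, adjusted p = 0.0426). It was 91.3, 91.8 and 85.0 CPM with the Rosa26 gRNA and 72.8, 74.2 and 81.8 CPM with the JunD gRNA, groups that lie apart, and the value with 6 libraries was -0.21 ± 0.07 (adjusted p = 0.417). Dusp16, which acts on JNK, did not pass (-0.34 ± 0.11, adjusted p = 0.417, and -0.22 ± 0.08, adjusted p = 0.142, with 5 libraries), and was highest in Rosa26 gRNA replicate 1 (25.3 CPM, others 16.1 to 20.3 CPM).

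Of the relatives of the Sprouty, Spred and Etv genes, Spry3 was not matched in the tables, and 0 of the 3 tested (Spry1, Spred3 and Etv1) passed with 6 or 5 libraries. Etv1, the other member of the PEA3 group, was at 183, 127 and 124 CPM with the Rosa26 gRNA and 120, 117 and 107 CPM with the JunD gRNA. Its JunD gRNA values all lay below, with a log2 fold change of -0.32 ± 0.13 (adjusted p = 0.417), and -0.13 ± 0.05 (adjusted p = 0.172) without Rosa26 gRNA replicate 1. Corrected for GC content and length, Etv1 was -0.017 (adjusted p = 0.916) on 6 libraries and -0.0013 (adjusted p = 0.994) on 5. Spred3 had a value of 0.07 ± 0.07 (adjusted p = 0.633), and 0.05 ± 0.06 (adjusted p = 0.758) with 5 libraries. The median of the 3 was 0.07 with 6 libraries and -0.04 with 5.

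Of 10 other tested genes that ERK induces, 0 passed with 6 libraries, 3 were positive and 7 negative, with a median of -0.11, and -0.21 with 5 libraries. Epha2, an ephrin receptor gene, fell with 5 libraries (-0.32 ± 0.08, adjusted p = 0.0302), but Rosa26 gRNA replicate 1 (16.2 CPM) was no higher than the JunD gRNA group (16.1 to 17.1 CPM), and the value with 6 was -0.21 ± 0.12 (adjusted p = 0.454). Errfi1, the feedback inhibitor of the EGF receptor, was -0.20 ± 0.08 (adjusted p = 0.417), and -0.18 ± 0.06 (adjusted p = 0.133) with 5 libraries. Il17rd, which encodes the FGF antagonist Sef, was -0.19 ± 0.10 (adjusted p = 0.429), and -0.20 ± 0.10 (adjusted p = 0.318) with 5 libraries. In both, all JunD gRNA libraries lay below all controls.

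At the top of the pathway, 0 of 10 tested ligand genes and 0 of 10 tested receptor tyrosine kinase genes passed with 6 libraries. With 5 libraries the growth factor gene Fgf2 fell (-1.69 ± 0.47, adjusted p = 0.0489). It was scarce, with 31, 44 and 40 counts against 9, 11 and 15, and was -1.60 ± 0.36 (adjusted p = 0.417) with 6. On the 5 libraries limma-voom also called Fgf2 (adjusted p = 0.0478), the edgeR fit corrected for GC content and length did not (adjusted p = 0.0697), and DESeq2 gave no adjusted p for it. Ereg, an EGF receptor ligand gene, was also scarce, with 44, 26 and 25 counts against 17, 12 and 4 (-1.39 ± 0.57, adjusted p = 0.417, and -1.02 ± 0.59, adjusted p = 0.425, with 5 libraries). The IGF1 receptor gene Igf1r fell with 5 libraries by 0.25 ± 0.04 (adjusted p = 0.000572), from 600 and 596 CPM in Rosa26 gRNA replicates 2 and 3 to 527, 500 and 479 CPM with the JunD gRNA. Rosa26 gRNA replicate 1 stood at 732 CPM, and with 6 libraries Igf1r was -0.34 ± 0.09 (adjusted p = 0.417). Erbb3, a receptor of the EGF receptor family, did not pass (-0.64 ± 0.19 with 6 libraries, adjusted p = 0.417, and -0.57 ± 0.19 with 5, adjusted p = 0.108).

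Between receptor and ERK, 0 of 13 tested adaptors and Ras regulators and 0 of 20 kinases and scaffolds of the Ras-RAF-MEK-ERK cascade passed with 6 libraries, with medians of -0.22 and -0.02. Without Rosa26 gRNA replicate 1 these medians were -0.07 and -0.01. The MEK2 gene Map2k2 rose with 5 libraries (0.19 ± 0.05, adjusted p = 0.0216). Its levels were 97.6, 133 and 129 CPM with the Rosa26 gRNA and 145, 147 and 156 CPM with the JunD gRNA, and its value with 6 libraries was 0.33 ± 0.12 (adjusted p = 0.417). After correction for GC content and length on the 5 libraries Map2k2 was not called (0.12, adjusted p = 0.0957). Rps6ka2, an ERK-activated kinase gene, was 0.17 ± 0.07 (adjusted p = 0.417), and 0.13 ± 0.04 (adjusted p = 0.0982) with 5 libraries. The Ras activator gene Sos2 and the Ras inactivator gene Rasa1 were -0.29 ± 0.10 and -0.33 ± 0.13 (adjusted p = 0.417 each), and both were highest in Rosa26 gRNA replicate 1. Without it Sos2 was -0.19 ± 0.06 (adjusted p = 0.106) and Rasa1 -0.15 ± 0.06 (adjusted p = 0.165). The GC and length correction gave -0.12 for Sos2 and -0.11 for Rasa1 on 6 libraries, and -0.11 and -0.051 on 5.

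A list of 7 tested genes held ETS factor genes under ERK control and Cic, the gene of Capicua. Of these 7, 0 passed with either set of libraries. The median was 0.12 with 6 libraries and 0.02 without Rosa26 gRNA replicate 1. Cic was 0.14 ± 0.08 (adjusted p = 0.454), and 0.07 ± 0.05 (adjusted p = 0.506) without it. Elk4 was -0.28 ± 0.15 (adjusted p = 0.443), and -0.07 ± 0.08 (adjusted p = 0.774) without it. Of 11 genes of the parallel JNK and p38 arms 0 passed as well, with a median of 0.05, and 0.03 with 5 libraries. Map2k7 was at 0.14 ± 0.08 (adjusted p = 0.434), and 0.16 ± 0.06 (adjusted p = 0.175) with 5 libraries. Map2k4 was at -0.10 ± 0.09 (adjusted p = 0.595), and -0.02 ± 0.06 (adjusted p = 0.937) with 5 libraries, and its sign turned after correction for GC content and length.

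**Figure D5:**
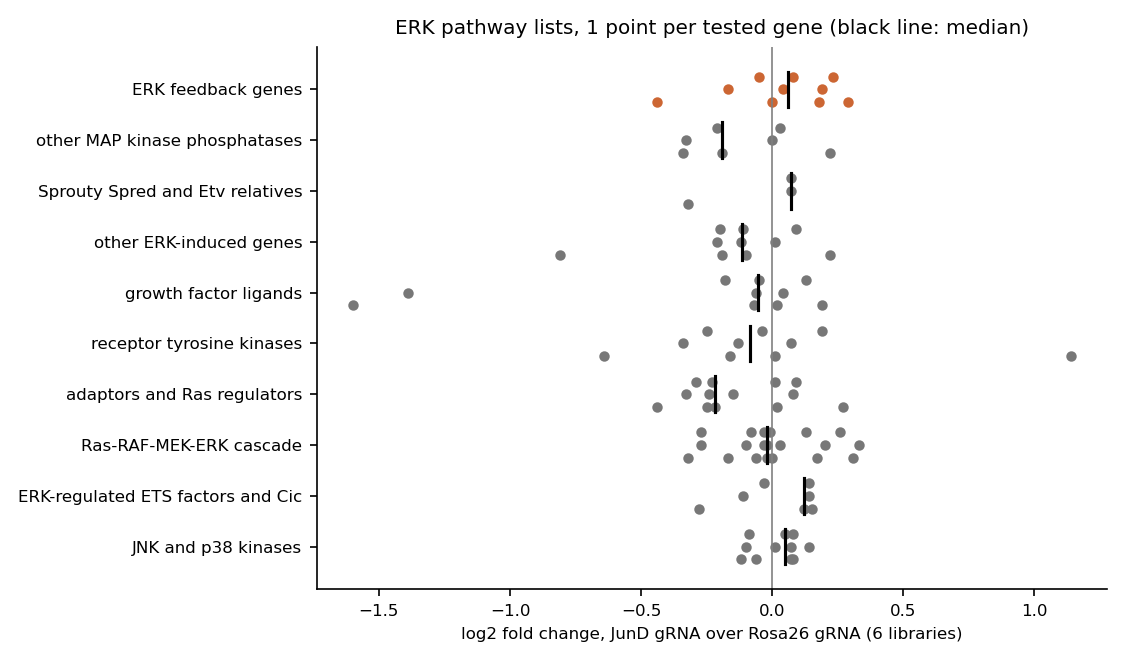
Log2 fold change of every tested gene in the 10 lists of the ERK pathway, JunD gRNA over Rosa26 gRNA on 6 libraries, with the ERK feedback genes in orange and the median of each list as a black line. The ERK feedback genes lie between -0.44 and 0.29 with a median of 0.06, and 0 of the points passed the test.

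Over the 6 libraries, the genes most like Etv4, the ERK feedback gene with the smallest unadjusted p (0.025), were Rab3a, Ruvbl2 and Tmem98. The measure was the root-mean-square distance between mean-centred log2 CPM, which was 0.0127, 0.0162 and 0.0183 among 11543 genes with a mean of at least 5 CPM. Rab3a ran from 63.9, 83.1 and 79.0 CPM in the Rosa26 gRNA libraries to 88.7, 91.3 and 88.8 CPM in the JunD gRNA libraries. Each of the 3 genes is lowest in Rosa26 gRNA replicate 1, as Etv4 is, and 0 of them passed the test (adjusted p = 0.417 each). They were selected on these same values, so both traits follow from the selection and are no separate result.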

How the data were processed

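The authors deposited unnormalized gene counts, with a separate headerless table for each library. Per the submitters' processing notes, TopHat2, featureCounts and mm10 were used. The sources used here do not give their versions, the annotation release, the strand setting or how multiply mapped reads were counted. Symbols were matched by Ensembl identifier without its version (53274 of 53379). Coordinates, exon lengths and GC content came from GENCODE M21 on GRCm38, and promoters from RefSeq.

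The groups were compared with edgeR 4.0.16 in R 4.3.3 (TMM, filterByExpr, quasi-likelihood test, group as the sole term, two-sided, Benjamini-Hochberg over all tested genes, threshold 0.05). SE is the absolute log2 fold change over the square root of F, and 95% intervals use the t quantile of the fit. They are approximate and not adjusted for the number of genes. Levels are counts over library totals, SDs are over libraries, and low counts limit the precision of genes near 1 CPM. The fit was also run on simulated counts, with dispersions estimated without Rosa26 gRNA replicate 1. The simulation thus does not show which changes the fit can detect with that library present. DESeq2 1.42.0, limma-voom (limma 3.58.1), other normalizations and filters, a correction for GC content and length (splines with 5 degrees of freedom per library), a replicate block and each library left out were alternatives. No 2 libraries agreed within sampling noise (lowest chi-square over its degrees of freedom 3.22).

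The 10 genes, the pathway lists and the alternatives were chosen with earlier results of these data known. Beside the 10 genes and Jund, the named genes are, in each pathway list, those called with 6 or 5 libraries and the 2 with the smallest p. Any other gene was named after its values were seen.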

Additional observations from a re-analysis of the deposited data

How the results depend on the processing

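The count of called genes, 0 on 6 libraries in edgeR (2119 at an unadjusted p under 0.05), was 67 with DESeq2, 293 with sample weights in limma-voom, 86 without a count filter and 25 after correction for GC content and length. It ranged from 0 to 523 with 1 library left out, where only the fit without Rosa26 gRNA replicate 1 called any gene. On those 5 libraries DESeq2 called 626, limma-voom 588 and the corrected fit 505 (336 higher and 169 lower, against 266 higher and 257 lower uncorrected). Of the 10 ERK feedback genes, 2 were called by DESeq2 (Dusp4 and Dusp5) and 1 by limma-voom (Dusp4) on the 5 libraries, and 0 under each of the other settings, including every library left out in edgeR. Their median went from 0.061 to 0.007 after correction for GC content and length on 6 libraries, where the median of all genes was 0.021. With this correction on the 5 libraries it was 0.075, and that of all genes was 0.026. The number without overlap stayed between 4 and 7, also on TMM-scaled levels, an alternative chosen after seeing the data.

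Dusp1 changed sign with RLE size factors (-0.00039), upper quartile factors (-0.0069), DESeq2 (-0.00038), sample weights (-0.10), the stricter filter (-0.0033) and the GC and length correction (-0.073), and on the 5 libraries with that correction (-0.11), DESeq2 (-0.10) and limma-voom (-0.10). With 1 library left out it ran from -0.10 to 0.11, and Spred2 from -0.12 to 0.00072. The same correction on 6 libraries turned Dusp4 (-0.05), Spred3 (-0.0043) and Map2k4 (0.0082, and 0.043 on 5). The cause of these changes was not tested. Over 30 named genes and 18 settings, 490 of 538 values kept their direction and side of the threshold, 32 passed it and 16 changed sign. With the replicate number as a replicate block, 0 genes and 0 of the 10 were called. Libraries with the same number did not deviate together (correlations of 0.0555, -0.0393 and 0.0742), and they share only a number.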

Other observations

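The remaining tested MAP kinase phosphatase genes, named after their values were seen, did not pass with 6 or 5 libraries. Dusp7, which encodes a cytoplasmic ERK phosphatase, was 0.22 ± 0.08 (SE, edgeR adjusted p = 0.417) on 6 libraries and 0.17 ± 0.06 (adjusted p = 0.119) without Rosa26 gRNA replicate 1. Dusp9, of the same subfamily, was scarce (0.262 to 0.46 CPM) and stood at -0.33 ± 0.40 and -0.35 ± 0.55. Dusp10, which acts on JNK and p38, was 0.00 ± 0.10 on 6 libraries and -0.08 ± 0.07 on 5. Dusp3 was -0.19 ± 0.08 and -0.15 ± 0.06, and Dusp14 was 0.03 ± 0.14 and -0.10 ± 0.10. The scarce Dusp2, tested with 5 libraries only, was 0.08 ± 0.69 (adjusted p = 0.976).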
